A study of Larimichthys crocea with 4 samples.

Results

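Translation factors and aminoacyl-tRNA synthetases are the soluble proteins that work with the ribosome to turn mRNA into protein, and their transcripts were examined here in liver of the large yellow croaker (Larimichthys crocea), a marine food fish. Members were the assembled transcripts (unigenes) whose KEGG definition names a translation initiation factor, a tRNA synthetase or tRNA ligase, or an elongation factor without the word transcription. Fragments were summed over all unigenes that share a KEGG orthology number, the database's label for a gene function. This gave 75 numbers with 296 unigenes, of 5468 numbers with 22677 unigenes in all. By name, 38 of the numbers were initiation factors, 16 elongation factors and 21 synthetases. Of these, 66 act in translation itself, 3 are regulators of it, and 6 carry the words of the rule but belong to another process and are described apart.

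Liver libraries came from fish fasted for 21 days, from fish under cold stress for 12 h, from fish under thermal stress for 12 h and from an untreated control group, with 1 library per condition. Per the study's methods, the fasting library and its fed control were made from the livers of 6 fish each. The temperatures of the stress groups and the number of fish behind their libraries are not given in the sources used here, nor are strain, age or sex. The control library is shared by the 3 comparisons, so that a high or low value in it moves all of them.

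Without a second library of any condition, no error between fish or libraries can be given. A member was called higher or lower where its fragments, relative to the library total, differed from the control library by at least 2-fold with an exact two-sided binomial p under 0.05 given the library totals, which tests counting error only and compares libraries, not conditions. Log2 ratios are of fragments over the library total, against the same in the control library, and the range in brackets after a log2 ratio is its exact 95% interval for counting error alone. The libraries held about 17000000 to 19500000 fragments, and each of the 75 members had at least 17 fragments in every library. The median log2 ratio over all KEGG numbers was -0.21 for fasting, 0.21 for cold stress and -0.13 for thermal stress, so that a member's ratio is read against these. In 12 of the 75 members more than 50% of the placed reads of some library fitted several places on the assembly, and this is stated where such a member is named.

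Initiation begins when eIF2, loaded with GTP and the initiator tRNA, joins the small ribosomal subunit with eIF1, eIF1A and the large scaffold complex eIF3. The eIF4F complex, formed by the cap-binding protein eIF4E, the scaffold eIF4G and the helicase eIF4A, brings the mRNA, and eIF2B recharges eIF2 after each round. Elongation then needs eEF1A, which delivers aminoacyl-tRNA, the eEF1B subunits that reload eEF1A with GTP, and eEF2, which moves the ribosome along. Each amino acid is joined to its tRNA by a synthetase, and mitochondria use separate forms of many factors and synthetases. In vertebrates, mRNAs of ribosomal proteins and of many elongation factors share a terminal oligopyrimidine start, by which the target of rapamycin pathway governs their translation.

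The summed shares of the classes took different directions in the fasting library. Elongation factors made up 2.36% of its fragments, 1.16% under cold stress, 1.66% under thermal stress and 1.16% in the control library. Initiation factors made up 0.773% in the fasting library, 0.740% under cold stress, 0.617% under thermal stress and 0.518% in the control library. Synthetases took 0.0700% after fasting (95% Wilson interval 0.0688 to 0.0712%), 0.123% under cold stress, 0.136% under thermal stress and 0.145% in the control library (0.143 to 0.146%). By summed share, the fasting library was thus the highest of the 4 for elongation and initiation factors and the lowest for synthetases. For initiation factors this rests on eIF3. Without eIF3 they made up 0.213% in the fasting library, the lowest of the 4. The same sum was 0.382% under cold stress, 0.283% under thermal stress and 0.257% in the control library. The elongation share was almost all eEF1 and eEF2, with 458663 of 460227 fragments after fasting. By member, 3 of the 10 elongation factors were called higher and 3 lower after fasting, with a median log2 ratio of 0.10. The 3 higher were eEF1 and eEF2 numbers, and the 3 lower were mitochondrial factors and eEF1-epsilon-1. Of the 6 eEF1 and eEF2 numbers, 5 had a ratio above 1 after fasting, with a median log2 ratio of 1.17. Over all KEGG numbers, 9.97% were called higher and 20.9% lower.

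**Figure D1:**
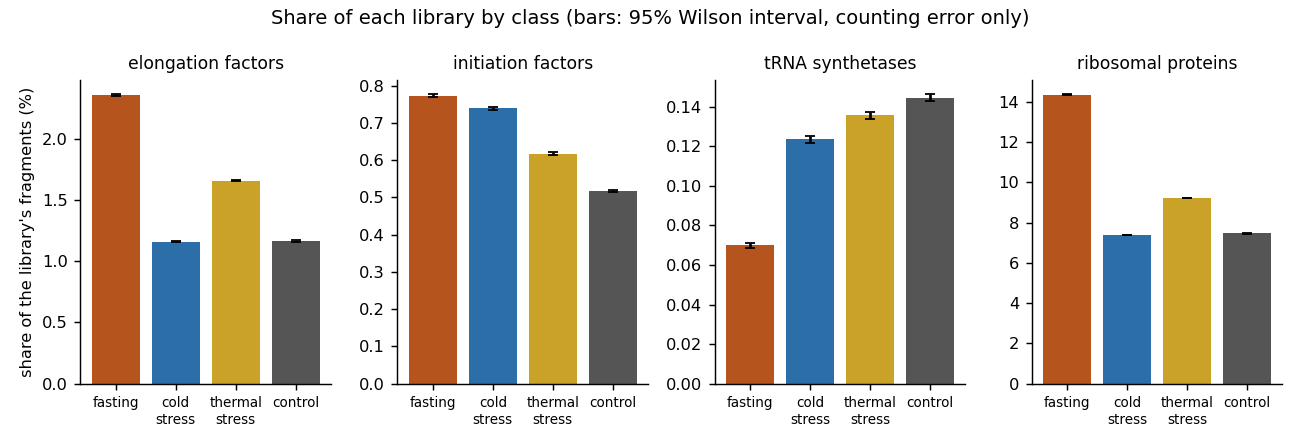
Share of each library's fragments, in percent, taken by elongation factors, initiation factors, tRNA synthetases and cytosolic ribosomal proteins in the fasting, cold stress, thermal stress and control libraries, with 95% Wilson intervals that cover counting error only. Elongation factors reached 2.36% in the fasting library against 1.16% in the control library, while synthetases stood at 0.0700% against 0.145%.

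All 7 hepatocyte markers were found in every library and made up 10.5% of fragments after fasting, 9.12% under cold stress, 9.29% under thermal stress and 11.5% in the control library. After fasting 1 of the 7, apolipoprotein A-I, was called higher (1083072 fragments against 391069 in the control library, log2 ratio 1.31) and 3 were called lower, namely fibrinogen beta (-1.90), transferrin (-1.17) and complement component 3 (-1.16), with a median of -0.71 over the list, whereas none was called under either stress. Digestive enzymes of pancreatic acinar cells were found as well, 11 of 11 with none at 0. They made up 10.1% of fragments in the fasting library, 5.69% under cold stress, 4.17% under thermal stress and 4.02% in the control library, and 9 of the 11 were called higher after fasting. Over all KEGG numbers, 9.97% were called higher and 20.9% lower after fasting. Erythrocyte markers took 0.0571%, 0.0701% and 0.0507% of the fasting, cold stress and thermal stress libraries and 0.0819% of the control library. Their members differed under cold stress. 5-aminolevulinate synthase was called higher (4200 fragments against 2018 in the control library, log2 ratio 1.10). It held 4200 of the 11936 marker fragments under cold stress, so that the summed share does not follow hemoglobin alone. Hemoglobin alpha, epsilon and zeta had log2 ratios of -0.83, -0.42 and -0.73 and were not called, alpha on 6 fragments. Hemoglobin zeta was called lower under thermal stress (-1.42). In the fasting library the acinar share and the summed shares of elongation factors and eIF3 were all higher than in control. Under cold stress the acinar share was 1.42 times control, that of elongation factors 0.995 times and that of eIF3 1.37 times. Under thermal stress the same shares were 1.04, 1.42 and 1.29 times control. The part of acinar cells in the fasting values was not tested. In bulk tissue, fewer cells of a type and less RNA per cell cannot be told apart.

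In the fasting library 42 of the 75 members were called, 15 higher and 27 lower. Over all KEGG numbers, 30.9% were called, 9.97% higher and 20.9% lower, so that the members' share of 56.0% was above that of the whole table. Under cold stress 7 members were called, 4 higher and 3 lower (9.33% of members, against 26.1% of all numbers, of which 17.0% were higher and 9.11% lower). Under thermal stress 9 members were called, 5 higher and 4 lower (12.0% of members, against 17.3% of all numbers, with 6.69% higher and 10.7% lower). The median log2 ratio was -0.57 for fasting, 0.15 for cold stress and 0.11 for thermal stress over the 66 members that act in translation. With TMM normalization the members called after fasting were 20 higher and 25 lower, under cold stress 3 higher and 7 lower, and under thermal stress 6 higher and 3 lower. The shares of all KEGG numbers called with TMM normalization or other alternative settings are not given here. Counts under those settings therefore describe the members only.

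**Figure D2:**
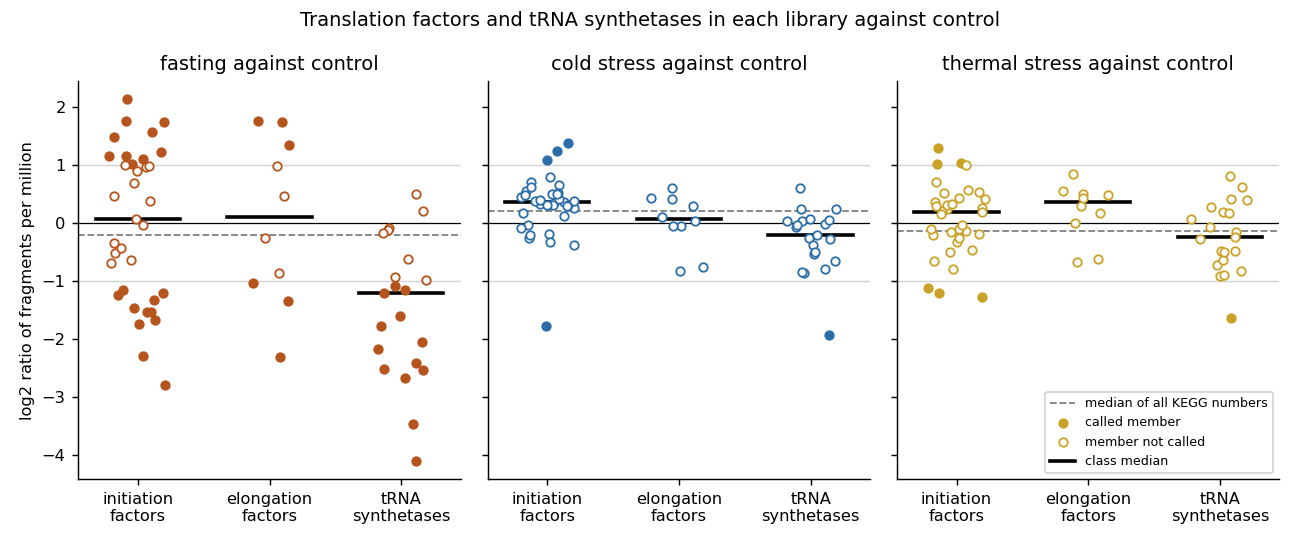
Log2 ratio of scaled fragments of each of the 66 translation members, by class, for fasting, cold stress and thermal stress, each against control. Filled points were called, black bars mark class medians and the dashed line marks the median of all KEGG numbers. The fasting panel spreads from -4.11 to 2.14, and its synthetases have a median of -1.20.

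Of the 35 initiation factors, 10 were called higher and 11 lower in the fasting library, and their median log2 ratio of 0.063 hides a split between complexes. These are 28.6% and 31.4% of the factors, against 9.97% and 20.9% of all KEGG numbers. The 13 subunits of eIF3, which holds the small ribosomal subunit and the incoming factors together, had a summed share of 0.560% of the fasting library, 0.358% under cold stress, 0.335% under thermal stress and 0.260% of the control library. After fasting 8 subunits were called higher and 1 lower, with 4 not called. The 22 other initiation factors went the other way, with 2 called higher and 10 lower (9.09% and 45.5%) and a median log2 ratio of -0.66.

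The largest rise in eIF3 was that of eIF3l, a peripheral subunit. It had 5442 fragments in the fasting library, 1477 under cold stress, 1651 under thermal stress and 1108 in the control library, and was 4.40-fold higher after fasting (log2 ratio 2.14 [2.04, 2.23]). Its partner in the complex, eIF3k, had 2545, 1033 and 1372 fragments in the fasting, cold stress and thermal stress libraries and 672 in the control library. The fasting ratio of eIF3k was 1.76 on the log2 scale [1.64, 1.89], with 48 to 68% of its reads fitting several places. The cap-contacting subunit eIF3d followed, with 9381 fragments after fasting, 3188 under cold stress, 3690 under thermal stress and 2515 in the control library (log2 ratio 1.74 [1.68, 1.80] for fasting).

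Among the core subunits, eIF3c rose by 1.57 on the log2 scale, with 7338 fragments after fasting against 2218 in the control library, and eIF3b by 1.11 [1.06, 1.16]. The subunits eIF3h, eIF3i and eIF3m were called higher as well, with log2 ratios of 1.16, 1.16 and 1.22. The subunits eIF3e, eIF3f and eIF3g missed the 2-fold limit by little, at 1.99-fold, 1.95-fold and 1.97-fold, and were called higher with TMM normalization or median-of-ratios size factors, which raise 8 called subunits to 11. The largest subunit, eIF3a, which the other subunits assemble around, had a log2 ratio of 0.68 [0.63, 0.74] after fasting and 0.71 [0.65, 0.77] under cold stress and was called in neither. Every subunit had a ratio above 1 under cold stress (log2 0.29 to 0.80) and under thermal stress (log2 0.15 to 1.00), also with TMM normalization or median-of-ratios size factors, and none of them reached 2-fold with library totals.

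The exception was eIF3j, a loosely attached subunit that sits near the decoding centre and is not part of the stable core. It was assembled as 1 unigene of 1914 bp (Unigene10789), on which no read fitted several places. It had 378 fragments in the fasting library, 3964 under cold stress, 3017 under thermal stress and 2340 in the control library. The fasting library was lower by 6.91-fold (log2 ratio -2.79 [-2.95, -2.63]) while the cold and thermal stress libraries stood above control by 0.80 and 0.33 on the log2 scale. The FPKM of a number (fragments per kilobase of unigene and per 1000000 fragments of the library) was summed over its unigenes. Per length, eIF3j had 10.1 FPKM after fasting, the lowest of the 13 subunits. In the cold stress, thermal stress and control libraries, with 122, 88.0 and 69.9 FPKM, it was number 8 of 13 in descending order. The level of the highest subunit, eIF3e, was 70.4 times that of the lowest after fasting, 9.47 times under cold stress, 9.30 times under thermal stress and 10.9 times in the control library.

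**Figure D3:**
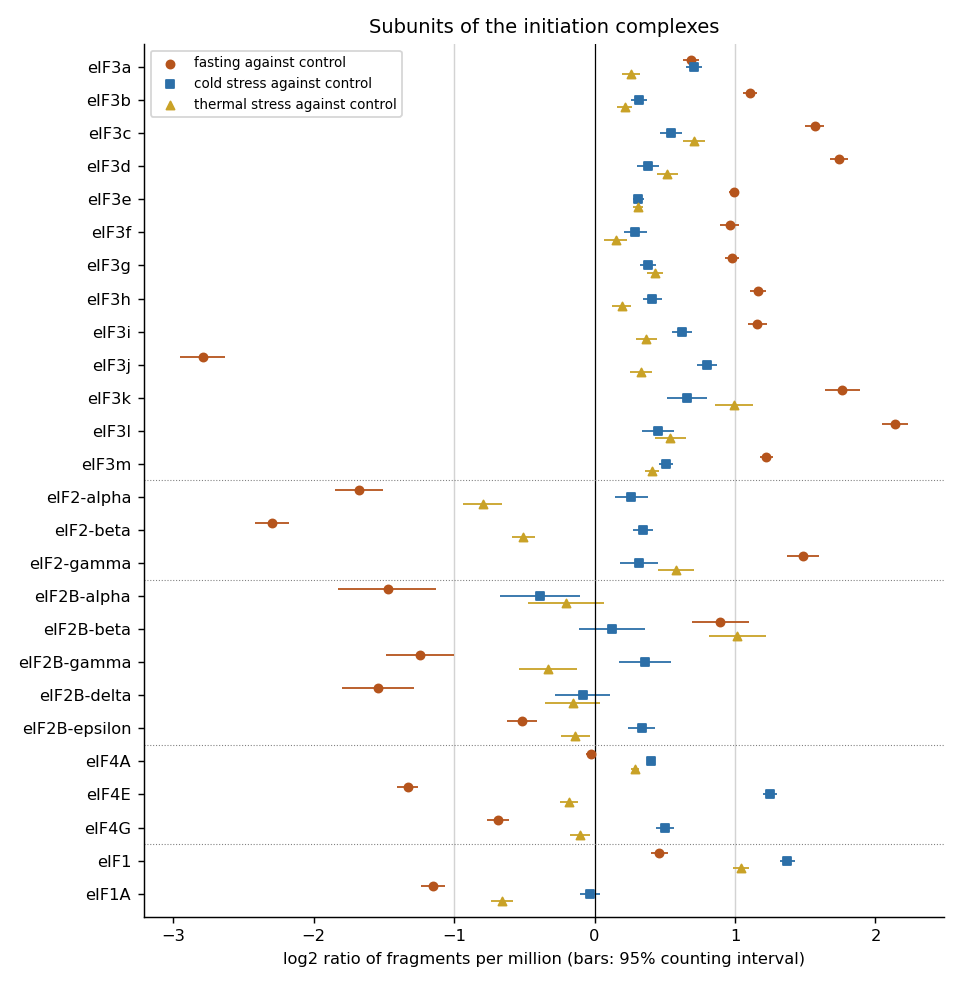
Log2 ratio of scaled fragments against control, with 95% counting intervals, of the subunits of eIF3, eIF2, eIF2B and eIF4F and of eIF1 and eIF1A in the fasting, cold stress and thermal stress libraries. After fasting, 12 of 13 eIF3 subunits lie above 0 and eIF3j at -2.79, and eIF2-gamma lies at 1.48 while eIF2-alpha and eIF2-beta lie at -1.68 and -2.30.

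The 3 subunits of eIF2 did not move together after fasting. The gamma subunit, which binds GTP and the initiator tRNA, had 2536 fragments in the fasting library, 984 under cold stress, 1241 under thermal stress and 812 in the control library. It was higher after fasting by 1.48 on the log2 scale [1.37, 1.60]. The beta subunit, which contacts eIF5 and eIF2B, had 689, 3752 and 2188 fragments in the fasting, cold stress and thermal stress libraries and 3033 in the control library (log2 ratio -2.30 [-2.42, -2.18] for fasting). The alpha subunit, whose phosphorylation blocks recycling of the complex, had 389, 1299 and 657 fragments and 1114 in the control library (log2 ratio -1.68 [-1.85, -1.51] for fasting). Gamma was thus highest, and alpha and beta lowest, in the fasting library. Of the reads on eIF2-alpha, 91% in the fasting library and 63% in the control library fitted several places, whereas none did on eIF2-beta or eIF2-gamma. Per length, the gamma subunit stood at 2.01 times the beta subunit after fasting, 0.143 times under cold stress, 0.319 times under thermal stress and 0.145 times in the control library. Here the FPKM of beta was summed over 2 unigenes and that of gamma came from 1, so that these levels depend on the sum.

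In eIF2B, the exchange factor that reloads eIF2 with GTP, the alpha, gamma and delta subunits were called lower after fasting. Their log2 ratios were -1.47 [-1.82, -1.13], -1.24 and -1.54 [-1.80, -1.28], on 99, 209 and 176 fragments after fasting against 246, 442 and 458 in the control library. The beta subunit had 621 fragments in the fasting library, 317 under cold stress, 619 under thermal stress and 299 in the control library. It therefore stood apart from the other subunits, higher under thermal stress (log2 ratio 1.02 [0.81, 1.22]), and its fasting ratio of 0.90 [0.69, 1.10] was not called. That fasting ratio became 1.02 with TMM normalization and 1.07 with median-of-ratios size factors, and was then called higher. The number of the catalytic epsilon subunit also holds 2 unigenes whose best protein hit is BZW1, a protein with a related domain, and these carried most of its fragments. The unigene with the eIF2B-epsilon hit had 273 fragments after fasting, 475 under cold stress, 441 under thermal stress and 559 in the control library, a log2 ratio of -1.19 for fasting.

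Within eIF4F, eIF4E was called lower after fasting and higher under cold stress, and eIF4A and eIF4G were not called. The number of eIF4E had 2020 fragments in the fasting library, 10528 under cold stress, 4111 under thermal stress and 4551 in the control library. It fell by 1.33 on the log2 scale after fasting [-1.41, -1.25] and rose by 1.25 under cold stress [1.20, 1.30]. The helicase eIF4A, the most abundant of the 3 per length, hardly differed after fasting, with 19399, 22731 and 22207 fragments in the fasting, cold stress and thermal stress libraries and 17714 in the control library. The number of eIF4G had 122, 277 and 182 fragments per 1000000 in the fasting, cold stress and thermal stress libraries and 195 in the control library, which gave log2 ratios of -0.69, 0.50 and -0.10. Of the reads on eIF4G, 39% in the fasting library, 81% under cold stress, 67% under thermal stress and 50% in the control library fitted several places.

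Within the eIF4E number, unigenes with different protein hits gave different patterns. Type 3 eIF4E, a cap-binding relative that in mammals does not meet the eIF4E-binding proteins, held 6161 of the 10528 fragments of the number under cold stress. Per length it had 22.4 FPKM in the fasting library, 145 under cold stress, 48.6 under thermal stress and 35.0 in the control library. The unigenes whose best hit was the mammalian-named eIF4E stood at 2.80 FPKM after fasting, 82.7 under cold stress, 26.1 under thermal stress and 22.6 in the control library, with 71 to 75% of reads fitting several places. A unigene with the hit eIF4E-1A had 16.2, 62.6 and 40.8 FPKM in the fasting, cold stress and thermal stress libraries and 85.6 in the control library, where it was highest. For this unigene the log2 ratio was -2.40 for fasting and -0.45 for cold stress. The direction of eIF4E under cold stress therefore depended on the form. The eIF4E-1A unigene has the highest FPKM summed over the 4 libraries, to which the control library contributes most, whereas by fragments a type 3 unigene (CL241.Contig3) was larger, with 907, 5476 and 1236 fragments in the fasting, cold stress and thermal stress libraries and 1119 in the control library, and a cold stress log2 ratio of 2.33. Type 2 eIF4E, a cap-binding form linked to repression of translation in mammals, stayed between 26.2 and 37.4 FPKM in the 4 libraries.

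Among the scaffolds, unigenes of eIF4G1 had 20.6, 34.7 and 26.7 FPKM in the fasting, cold stress and thermal stress libraries and 32.6 in the control library. The related eIF4G2, which lacks the eIF4E-binding part and in mammals serves cap-independent initiation, had 2.40 FPKM in the fasting library, 25.6 under cold stress, 9.66 under thermal stress and 5.38 in the control library. The cold stress library was thus highest for eIF4G2 (log2 ratio 2.28), with 90 to 93% of reads fitting several places. The eIF4G number also took in 2 unigenes with the hit PDCD4, an inhibitor of eIF4A, with 610 fragments after fasting, 336 under cold stress, 446 under thermal stress and 490 in the control library.

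The eIF4E-binding proteins (4E-BP), which hold eIF4E off eIF4G when unphosphorylated, split in a similar way. The unigene of 4E-BP1 had 546 fragments in the fasting library, 275 under cold stress, 249 under thermal stress and 224 in the control library (log2 ratio 1.13 for fasting). Those of 4E-BP2 had 45.1, 179 and 100 FPKM in the fasting, cold stress and thermal stress libraries and 84.0 in the control library, with log2 ratios of -0.99 for fasting and 0.73 for cold stress. The pair of 4E-BP2 unigenes went opposite ways under cold stress, at -1.05 (Unigene6651) and 1.33 (Unigene7887), while after fasting they stood at -1.26 and -0.82. The unigene with the hit 4EB3L, a relative of 4E-BP3 by name, had 246, 457 and 278 fragments in the fasting, cold stress and thermal stress libraries and 222 in the control library, a log2 ratio of 1.08 for cold stress. After fasting 4E-BP1 was therefore higher and 4E-BP2 lower, and the number that sums them had 1798 fragments against 2239 in the control library and was not called.

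**Figure D4:**
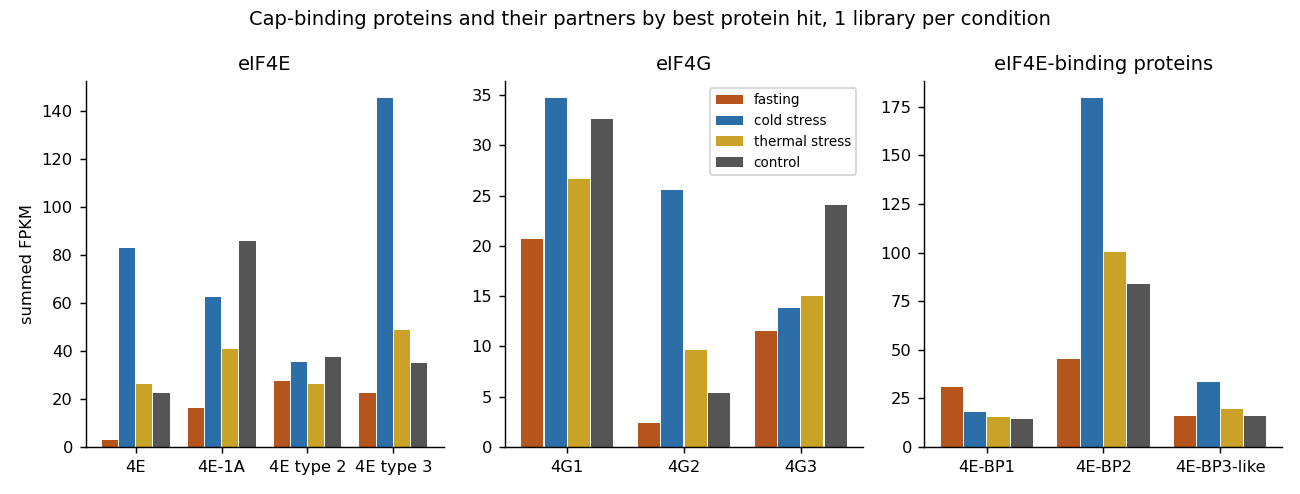
Summed FPKM of unigenes of eIF4E, eIF4G and the eIF4E-binding proteins, grouped by best protein hit, in the fasting, cold stress, thermal stress and control libraries (1 library each, no error bars). Type 3 eIF4E reached 145 FPKM under cold stress against 35.0 in the control library, while the eIF4E-1A unigene was highest in the control library at 85.6 FPKM.

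The scanning factor eIF1, which guards start codon choice, was the initiation factor with the largest rise under cold stress. It had 5837 fragments in the fasting library, 9570 under cold stress, 8016 under thermal stress and 3799 in the control library. It was called higher under cold stress (log2 ratio 1.37 [1.32, 1.43]) and thermal stress (1.04 [0.99, 1.10]) and had a ratio of 0.46 after fasting. Its partner eIF1A, which occupies the ribosomal A site, was lowest after fasting, with 1668, 3159 and 2158 fragments in the fasting, cold stress and thermal stress libraries and 3321 in the control library. The fasting ratio of eIF1A, -1.15 on the log2 scale, became -0.98 with median-of-ratios size factors and was then not called.

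The anti-association factor eIF6, which keeps the large ribosomal subunit free, was called in all 3 comparisons and not in the same direction. It had 210 fragments in the fasting library, 1128 under cold stress, 230 under thermal stress and 544 in the control library. The log2 ratios were -1.53 [-1.77, -1.30] for fasting, 1.09 [0.94, 1.24] for cold stress and -1.28 [-1.51, -1.05] for thermal stress, and the cold stress value fell to 0.89 with TMM normalization. The non-canonical factor eIF2D had 121, 294 and 161 fragments and 363 in the control library, and was called lower after fasting (-1.74 [-2.05, -1.44]) and thermal stress (-1.21 [-1.48, -0.94]). Another non-canonical factor, eIF2A, was higher after fasting, with 740 fragments against 328 in the control library (1.01 [0.83, 1.21]).

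The number of eIF5A, the hypusine-carrying factor that eases stalled peptide bonds, had 139 fragments in the fasting library, 151 under cold stress, 486 under thermal stress and 194 in the control library. Its call under thermal stress (log2 ratio 1.29 [1.05, 1.54]) rests on unigenes where 72 to 80% of reads fitted several places. Once unigenes of mostly such reads were left out, 1 unigene (Unigene37002) remained, with 0 fragments under thermal stress and 10 in the control library, so that the call could not be examined in this way. With summed FPKM the log2 ratio was 0.76. The numbers of the GTPase-activating protein eIF5, the helicase cofactor eIF4B and the subunit-joining factor eIF5B had log2 ratios between -0.47 and 0.49 in the 3 comparisons and were not called. On eIF4B 82 to 85% of reads fitted several places, and on eIF5B 79 to 93%. The eIF5B number holds a unigene with the hit ABCF4 that had 286 fragments after fasting and 0 in the other 3 libraries, where a count of 0 allows up to 3 fragments. Another, with the hit DNLI1, had 158, 81 and 61 fragments in the fasting, cold stress and thermal stress libraries and 369 in the control library. The unigenes with the eIF5B hit itself had log2 ratios of -0.96 for fasting, 0.43 for cold stress and 0.21 for thermal stress.

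Per length, eEF1A, eEF1B-gamma, eEF1B-beta and eEF2 were the 4 most abundant members in every library. The tRNA carrier eEF1A had 3939 FPKM in the fasting library, 1927 under cold stress, 2913 under thermal stress and 1995 in the control library. In fragments these were 237129, 100799, 161568 and 107563, and the fasting library was 1.97-fold higher (log2 ratio 0.98 [0.97, 0.99]), just under the limit and over it with TMM normalization. The translocase eEF2 had 117011 fragments after fasting, 42717 under cold stress, 56694 under thermal stress and 40987 in the control library (log2 ratio 1.35 [1.34, 1.37] for fasting). Both were thus highest after fasting, next highest under thermal stress, and close to control under cold stress.

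Of the eEF1B exchange subunits, beta rose most, with 34870 fragments in the fasting library, 9218 under cold stress, 13332 under thermal stress and 9209 in the control library (log2 ratio 1.76 [1.73, 1.80] for fasting). The delta subunit had 6475, 2282 and 3204 fragments and 1738 in the control library, a fasting ratio of 1.74 [1.66, 1.82] on the log2 scale. On delta, 83 to 87% of reads fitted several places, and the ratio was 0.086 without the unigenes concerned. The gamma subunit, a structural partner, was less changed, with 63078, 38489 and 58909 fragments and 41033 in the control library (0.46 for fasting and 0.49 for thermal stress). The 5 numbers named eEF1, which include eEF1-epsilon-1, were summed with eEF2. Together they made up 2.35% of the fasting library, 1.14% under cold stress, 1.64% under thermal stress and 1.15% of the control library.

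The protein named eEF1-epsilon-1, which in mammals is a scaffold of the multisynthetase complex and not an exchange factor, did not follow the other eEF1 numbers. It had 100 fragments after fasting, 101 under cold stress, 122 under thermal stress and 184 in the control library (log2 ratio -1.04 [-1.40, -0.68] for fasting, and -0.92 with TMM normalization). The kinase of eEF2, which slows elongation by phosphorylating it, had 573 fragments in the fasting library, 177 under cold stress, 582 under thermal stress and 224 in the control library. It was called higher after fasting (1.20 [0.97, 1.43]) and thermal stress (1.34 [1.12, 1.57]), whereas under cold stress its ratio was -0.30.

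Of the 5 mitochondrial factors, 3 were called lower after fasting and 0 higher, where 20.9% of all KEGG numbers were called lower and 9.97% higher. EF-G, the mitochondrial translocase, had 238 fragments in the fasting library, 1557 under cold stress, 1222 under thermal stress and 1054 in the control library (log2 ratio -2.31 [-2.51, -2.10] for fasting). In this number, 70 to 74% of reads fitted several places, and without the unigenes concerned, which leaves mainly the related ribosome-recycling factor, the ratio was -0.88. EF-Ts, which reloads mitochondrial EF-Tu, had 95, 281 and 138 fragments and 216 in the control library (-1.34 [-1.71, -0.99] for fasting). Mitochondrial initiation factor IF-2 was called lower after fasting (-1.20 [-1.64, -0.78]). IF-3 was called lower under cold stress, with 24 fragments against 85 in the control library (-1.78 [-2.50, -1.12]). It was also called lower under thermal stress, with 40 fragments (-1.12 [-1.70, -0.56]). The thermal stress ratio of IF-3 became -0.97 with TMM normalization or median-of-ratios size factors and was then not called. The EF-Tu number, which also holds the selenocysteine-specific factor, had log2 ratios of -0.26, -0.75 and 0.30 for fasting, cold stress and thermal stress and was not called.

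Of the 21 synthetase numbers, 13 were called lower and 0 higher in the fasting library, where 20.9% of all KEGG numbers were called lower and 9.97% higher. The median log2 ratio was -1.20, against -0.21 over all numbers. With TMM normalization 12 synthetase numbers were called lower after fasting, and with median-of-ratios size factors 11. The summed synthetase fragments were 13671 after fasting, 21019 under cold stress, 24290 under thermal stress and 25281 in the control library. Under cold stress and under thermal stress 1 synthetase each was called lower and none higher, and the medians were -0.21 and -0.24 on the log2 scale. Of all KEGG numbers, 9.11% were called lower and 17.0% higher under cold stress, and 10.7% lower and 6.69% higher under thermal stress. The cold stress count depended on scaling, with 4 synthetases called lower with TMM normalization and 3 with median-of-ratios size factors. The thermal stress count stayed at 1 with either.

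The steepest fall was that of the tyrosyl-tRNA synthetase number, with 57 fragments in the fasting library, 474 under cold stress, 647 under thermal stress and 883 in the control library, 17.3-fold lower after fasting (log2 ratio -4.11 [-4.53, -3.72]). Of its unigenes, the 1 with the cytosolic tyrosyl hit (CL2820.Contig1) had 18 fragments after fasting, 201 under cold stress, 468 under thermal stress and 531 in the control library. Another unigene of the number matched FAM203A, a different protein, with 32 fragments after fasting and 346 in the control library. Methionyl-tRNA synthetase, which also charges the initiator tRNA, had 79, 529 and 430 fragments in the fasting, cold stress and thermal stress libraries and 785 in the control library (-3.47 [-3.82, -3.14] for fasting). In both, the fasting library was far below the other 3.

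Asparaginyl-tRNA synthetase had 167 fragments after fasting, 659 under cold stress, 696 under thermal stress and 959 in the control library, a log2 ratio of -2.68 [-2.93, -2.44] for fasting. Tryptophanyl-tRNA synthetase had 128, 668 and 361 fragments and 668 in the control library (-2.54 [-2.83, -2.27]). Arginyl-tRNA synthetase had 304, 1440 and 1793 fragments and 1561 in the control library (-2.52 [-2.70, -2.34]). Histidyl-tRNA synthetase had 263, 1193 and 828 fragments and 1255 in the control library (-2.41 [-2.61, -2.22]). These 4 enzymes were lowest after fasting, and none of their ratios reached 2-fold in the stress libraries. The threonyl, leucyl, valyl, alanyl, glutamyl-prolyl, cysteinyl and glutamyl numbers were also called lower after fasting, from -2.18 for threonyl to -1.09 for glutamyl on the log2 scale. On leucyl 89 to 90% of reads fitted several places. Within the threonyl number, the cytosolic unigenes differed, with fasting log2 ratios of -3.61 (Unigene16783) and -0.27 (Unigene16454).

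The other 8 numbers were not called after fasting. Aspartyl-tRNA synthetase had 2009 fragments in the fasting library, 1799 under cold stress, 1670 under thermal stress and 1557 in the control library. By FPKM summed over its 8 unigenes it was the highest synthetase number in every library. By fragments, threonyl was higher in the control library, with 2760. Seryl-tRNA synthetase had 1068, 981 and 1382 fragments and 1021 in the control library, and glycyl-tRNA synthetase 1267, 994 and 1530 fragments and 1239 in the control library. The alpha and beta chains of phenylalanyl-tRNA synthetase, which form 1 enzyme, had log2 ratios of -0.17 [-0.28, -0.06] and 0.50 [0.35, 0.65] after fasting. Lysyl, isoleucyl and glutaminyl had -0.98, -0.93 and -0.62, with 93 to 96% of the lysyl reads fitting several places. Within the isoleucyl number, the unigene of the cytosolic enzyme was itself called lower, with 343 fragments after fasting against 794 in the control library (-1.37). A contig of that number without a protein hit (CL3002.Contig1) went the other way, with 145 against 42 (1.63). On this contig 62% of reads after fasting and 87% in the control library fitted several places. Aspartyl and the phenylalanyl beta chain were the only numbers of the 21 with a fasting ratio above 1, joined by seryl, glycyl and the phenylalanyl alpha chain with median-of-ratios size factors, which raised every fasting ratio by 0.18 on the log2 scale. Of the 8 numbers whose mammalian enzymes sit in the multisynthetase complex, 4 were called lower after fasting (50%, against 20.9% of all KEGG numbers). The log2 ratios of the 8 ran from -3.47 for methionyl to 0.21 for aspartyl.

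**Figure D5:**
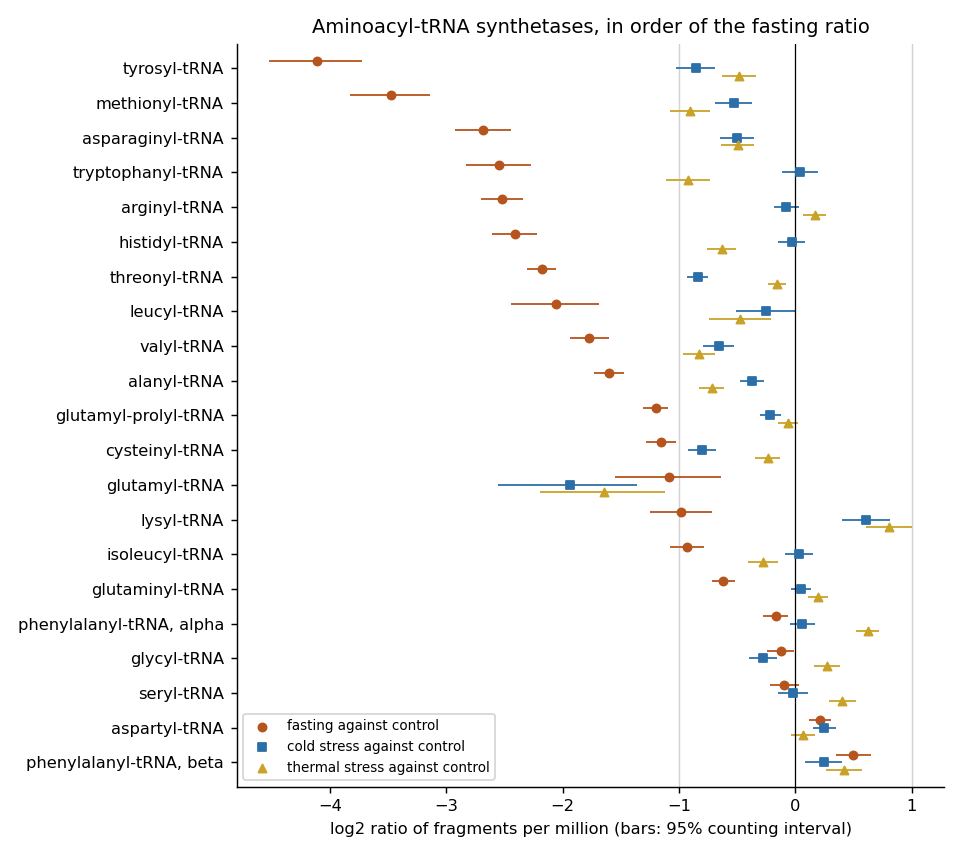
Log2 ratio of scaled fragments against control, with 95% counting intervals, of 21 aminoacyl-tRNA synthetase numbers in the fasting, cold stress and thermal stress libraries, in order of the fasting ratio. The fasting ratios run from -4.11 for tyrosyl to 0.50 for the phenylalanyl beta chain, and 13 of them were called lower.

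Synthetases of the cytosol and of mitochondria were separated by the word mitochondrial in the protein hits of their unigenes, which left 20 cytosolic and 12 mitochondrial sets. After fasting 13 of the 20 cytosolic sets were called lower, with a median log2 ratio of -1.51, and 3 of the 12 mitochondrial sets, with a median of -0.66. Over all KEGG numbers 20.9% were called lower after fasting, so that the mitochondrial sets, at 25.0%, lay near the share of the whole table and the cytosolic sets, at 65.0%, above it. Under cold stress 1 cytosolic set was called lower, tyrosyl with a log2 ratio of -1.36, while 5 mitochondrial sets were called lower and 1 higher (9.11% of all numbers were called lower and 17.0% higher). Under thermal stress 0 cytosolic and 4 mitochondrial sets were called lower, against 10.7% of all numbers. Mitochondrial glutamyl-tRNA synthetase, the only form in its number, was called lower in all 3 comparisons with library totals. It had 64 fragments after fasting, 31 under cold stress, 40 under thermal stress and 122 in the control library. TMM normalization raised every fasting ratio by 0.12. This brings the fasting ratios of mitochondrial glutamyl (-1.09) and mitochondrial aspartyl (-1.05) inside the 2-fold limit. Mitochondrial arginyl-tRNA synthetase had 42, 14 and 11 fragments and 72 in the control library, whereas the cytosolic form had 262, 1426 and 1782 and 1489 in the control library. The cytosolic arginyl enzyme was thus lowest after fasting and the mitochondrial one lowest under cold and thermal stress. The mitochondrial sets sum to 547 to 887 fragments a library, so that their counting intervals are wide, and a difference between the compartments was not tested.

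The number of the eIF2-alpha kinases, which shut down initiation under stress, was not called in any comparison and holds 4 kinases with different values. GCN2 (EIF2AK4), which senses uncharged tRNA, had 281 fragments in the fasting library, 160 under cold stress, 241 under thermal stress and 140 in the control library. PERK (EIF2AK3), which senses stress of the endoplasmic reticulum, had 275, 307 and 216 fragments and 381 in the control library. The unigenes of PKR (EIF2AK2), which senses double-stranded RNA, had 222, 216 and 132 fragments and 275 in the control library. On these PKR unigenes 77 to 84% of reads fitted several places. The largest unigene of the number by fragments matched RWDD1, which is not a kinase, with 496 fragments after fasting and 917 in the control library.

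The number of HBS1, which rescues stalled ribosomes, had 800 fragments in the fasting library, 1549 under cold stress, 1335 under thermal stress and 1301 in the control library and was not called. It also holds a unigene of GTPBP2, a related ribosome-rescue protein, with 58, 473 and 354 fragments in the fasting, cold stress and thermal stress libraries and 110 in the control library. This unigene was highest under cold and thermal stress, with log2 ratios of 2.14 and 1.65. The 6 numbers of another process are argonaute, once called eIF2C and part of gene silencing, and 5 numbers of transcription elongation by RNA polymerase II. Among them NELF-A, a subunit of the negative elongation factor, was called higher after fasting (log2 ratio 2.07 [1.82, 2.32]), cold stress (1.24 [0.97, 1.51]) and thermal stress (1.71 [1.45, 1.97]). It had 772, 379 and 552 fragments and 165 in the control library, and with only the unigene of the NELF-A hit the cold stress ratio was 0.81 and not called. NELF-B was called lower under cold stress (-1.27 [-1.75, -0.80]), or -0.62 with only its own hits.

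Other genes of the pathway were taken from a list of ribosomal proteins, release factors, enzymes of eIF5A modification and regulators. Of 79 cytosolic ribosomal proteins, 42 were called higher and 0 lower after fasting, with a median log2 ratio of 1.01. Over all numbers, 9.97% were called higher and 20.9% lower after fasting. Under cold stress 0 of the 79 were called higher, against 17.0% of all numbers, and under thermal stress 1, against 6.69%. Poly(A)-binding protein, which joins the mRNA tail to eIF4G, had 46154 fragments in the fasting library, 15703 under cold stress, 18130 under thermal stress and 16758 in the control library (log2 ratio 1.30 for fasting). The 3 release factors, which end translation at the stop codon, were all called lower after fasting with library totals. The log2 ratios were -1.26 for release factor 1, -1.01 for release factor subunit 1 and -1.08 for release factor subunit 3. TMM normalization raised every fasting ratio by 0.12, which brings those of subunit 1 and subunit 3 inside the 2-fold limit. Deoxyhypusine monooxygenase, which completes the hypusine of eIF5A, was called lower after fasting, with 111 fragments against 372 in the control library.

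Of 8 numbers of the target of rapamycin pathway, 2 were called lower after fasting, 2 higher under cold stress, and 1 higher and 1 lower under thermal stress. Over all numbers 20.9% were called lower after fasting, 17.0% higher under cold stress, and 6.69% higher and 10.7% lower under thermal stress, so that with 8 numbers these counts lie near the shares of the whole table. The S6 kinase had 219 fragments in the fasting library, 779 under cold stress, 299 under thermal stress and 417 in the control library. DDIT4 (REDD1), a stress-induced inhibitor of the pathway, had 139 fragments after fasting, 11882 under cold stress, 20013 under thermal stress and 369 in the control library. Its log2 ratios were -1.57, 5.05 and 5.73, so that it was lowest after fasting and far above control under either stress. Of 4 numbers of the amino acid response, asparagine synthase and DDIT3 (CHOP) were called lower after fasting, with log2 ratios of -2.90 and -1.46. ATF4, the transcription factor at the head of that response, had 2565, 4815 and 4172 fragments and 3146 in the control library and was not called. The number of the tribbles pseudokinases was called higher under cold stress (3.04) and thermal stress (2.70).

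More abundant members tended to have higher fasting ratios. Across the 66 translation members, the fasting log2 ratio and the mean FPKM in the cold and thermal stress libraries had a Spearman correlation of 0.52, against -0.14 across all 5411 numbers with a ratio. With unigene length the correlation was -0.23, against -0.088 over all numbers, and with GC content 0.29, against 0.21. These correlations are across genes of 1 pair of libraries and describe them only.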

How the data were processed

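Per the labels, the authors extracted liver RNA with Trizol and prepared libraries from 1 ug of total RNA with an Illumina TruSeq kit, whereas the study's methods name a tissue RNA kit (Omega) for the extraction. Per those methods they selected mRNA with oligo(dT) beads, sequenced it on an Illumina HiSeq instrument and assembled the reads without a genome. The deposited table holds raw fragment counts per unigene, without normalization, and FPKM, which the authors computed as these counts per kilobase of unigene and per 1000000 fragments of the library. The deposited coverage tables hold, for each unigene, counts of reads placed once or at several places and the percent GC. The aligner and counting program are not given in the sources used here, nor is how fragments that fit several places were counted. In each library 51.0 to 60.05% of placed reads fitted several places. Columns with the authors' own fold changes and p-values were not used, and 0 further columns per library were left unused.

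Counts were summed by KEGG orthology number as annotated by the authors (22677 unigenes, 5468 numbers). Each library was compared with control over all numbers by an exact, two-sided binomial test of its counts given the library totals, which were the scaling. A number was called at p under 0.05 and at least 2-fold. Ratios against 3 or fewer fragments were set against 3, and no ratio was formed where neither library had more than 3. Intervals are exact (Clopper-Pearson) for ratios and Wilson for shares, at 95%, and cover counting error only, since PCR copies are not independent molecules. Medians were taken over member numbers. The call rule was run before use on simulated counts with counting error alone and changes well above 2-fold. That run cannot show how the rule fares near the limit or with variation between fish or libraries.

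The members and gene lists were chosen with earlier results of these data known. Text names, for each class and comparison, the 6 called members with the largest ratio among those with at least 50 fragments in the libraries compared, all subunits of eIF2, eIF2B, eIF3, eIF4F, eEF1 and eEF2, the synthetases by compartment, and the regulators and members of another process. Unigenes within a number were told apart by their Swiss-Prot hits, and those forms were picked after their values were seen. Alternatives were TMM normalization (edgeR 4.0.16), median-of-ratios size factors (DESeq2 1.42.0), totals without digestive enzymes, a minimum of 10 fragments, the most abundant unigene of a number (by FPKM summed over the 4 libraries), single unigenes, leaving out unigenes with over 50% of reads at several places, summed FPKM, Benjamini-Hochberg adjustment, a 1.5-fold limit and edgeR's exact test under a coefficient of variation set to 0.2 or 0.4. Keeping only unigenes whose Swiss-Prot hit is a protein of the number was added after seeing the data. The work was done in R 4.3.3 and Python 3.11.15 (scipy 1.17.1). No sequences were at hand, and none is shown.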

Additional observations from a re-analysis of the deposited data

How the results depend on the processing

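No paired analysis was possible because each condition has 1 library, and no library could be left out for the same reason. Scaling moved every ratio of a comparison alike: TMM normalization shifted log2 ratios by 0.12 for fasting, -0.21 for cold stress and 0.15 for thermal stress. Members called after fasting numbered 42, and between 39 and 57 under the other settings on KEGG numbers, except 19 with edgeR's exact test and an assumed coefficient of variation of 0.4, while 117 single unigenes were called. Under cold stress 7 were called, but 11 with the most abundant unigene, 22 at 1.5-fold, 1 with a coefficient of variation of 0.4, and 75 single unigenes. Under thermal stress 9 were called, but 15 with the most abundant unigene, 24 at 1.5-fold, 1 with a coefficient of variation of 0.4, and 78 single unigenes. Shares of all KEGG numbers or of all unigenes called under these settings are not given here, so these counts are not set against the whole table. The median log2 ratio of initiation factors after fasting, 0.063, was 0.28 with the most abundant unigene or without multiply placed unigenes and -0.45 over single unigenes. That of synthetases, -1.20, was -1.48 with the most abundant unigene and -0.82 over single unigenes. Under cold stress, TMM normalization moved the medians to 0.15 for initiation factors, -0.14 for elongation factors and -0.42 for synthetases, from 0.36, 0.070 and -0.21. Under thermal stress the median of initiation factors was -0.054 over single unigenes, against 0.20. Of 58 calls of a member in a comparison, the sign turned for eIF4E under cold stress with the most abundant unigene by summed FPKM (-0.45), though not for the number's largest unigene by fragments (2.33). Without multiply placed unigenes the eIF5A value under thermal stress, -1.77, is only 10 control fragments on 1 unigene set against the floor of 3 and does not bear on the call. With a coefficient of variation of 0.4, 21 of the 58 calls held. The spread between fish is unknown, so that none of the calls can be read as a difference between conditions, and members of few fragments, such as the mitochondrial synthetases, are limited by depth.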

Other observations

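A contig of eEF1A with the hit of the mammalian form (CL1774.Contig3) had 6 fragments in the fasting library, 175 under cold stress, 0 under thermal stress and 1 in the control library. The unigenes with the hit EF1A0 had 32, 57 and 14 fragments in the fasting, cold stress and thermal stress libraries and 3 in the control library. Unigenes of eIF4A2, the relative of eIF4A1, had 97.9 FPKM after fasting, 50.6 under cold stress, 151 under thermal stress and 58.0 in the control library, while eIF4A1 had 298, 421 and 361 FPKM and 313 in the control library. The threonyl-tRNA synthetase number holds 2 unigenes with a cytosolic hit (SYTC), together with 443, 1288 and 2279 fragments and 2531 in the control library. Of these, Unigene16783 had 208 fragments after fasting against 2278 in the control library, and Unigene16454 had 235 against 253. A second cytosolic-type form (SYTC2) had 138, 121 and 171 fragments and 128 in the control library. A unigene of the eIF3h number with the hit LAAT1, a lysosomal amino acid transporter, had 135 fragments after fasting, 852 under cold stress, 232 under thermal stress and 290 in the control library, whereas the unigene with the eIF3h hit had 8132, 3428 and 3645 fragments and 3016 in the control library. Within the eIF2-alpha kinase number, HRI (EIF2AK1), which senses heme, had 82, 145 and 88 fragments and 75 in the control library.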
